A study of Mus musculus with 6 samples.

Results

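The liver makes most of the plasma proteins whose level in blood shifts during inflammation, and 10 genes for such proteins are described here in mouse livers after feeding with a diet rich in cholesterol (HCD) or with regular chow (RD). They are the serum amyloid A genes Saa1, Saa2, Saa3 and Saa4, the pentraxin gene Apcs, the orosomucoid genes Orm1 and Orm2, haptoglobin (Hp), haemopexin (Hpx) and lipocalin 2 (Lcn2). They were taken by gene symbol from a list of acute phase genes that was drawn up with earlier results of these data known, although no measured value enters its rule, and all 10 were found among the 20673 genes of the deposited tables.

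Liver RNA of C57BL/6J mice was sequenced in 6 libraries, 3 from RD-fed and 3 from HCD-fed mice. All mice were without surgery or infection at this point, and the question was what HCD alone does to the liver before sepsis is induced. HCD-fed mice had the diet for 3 days, and HCD held added cholesterol together with cocoa butter fat and sodium cholate, a bile salt, whereas RD was an ordinary chow. The effects of cholesterol, fat and cholate therefore cannot be told apart in this contrast. The livers of each diet are numbered as replicates 1 to 3, with no further statement on their origin in the labels, so the p-values measure the spread between these samples.

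In an acute phase response, cytokines of the interleukin-6 and interleukin-1 types act on hepatocytes. The factor STAT3 downstream of gp130 receptors, the C/EBP factors and NF-kB then raise transcription of positive acute phase genes, while negative acute phase genes such as albumin fall. In mice Saa1, Saa2, Orm2, Hp, Hpx and Lcn2 are among the genes known to respond strongly to inflammatory stimuli, and serum amyloid P, the product of Apcs, is a classical acute phase reactant of this species. Saa4 is known as the constitutive member of its family.

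The libraries held 13771630 to 23129576 counts, so that 3 counts corresponded to 0.130 to 0.218 CPM (counts per 1e+06 counts of the library). CPM values below were scaled by TMM, and each member had over 80 counts in each liver. HCD replicate 1 held 5032 counts of Xist, the RNA of the inactive X chromosome, and no counts of 4 Y-linked genes, whereas the other 5 livers held no Xist and 1075 to 2666 Y-linked counts. The labels give no sex, and the study used both. The 8 hepatocyte markers summed to 90610 to 141100 CPM, which fitted the label liver. The deposited library names follow 1 scheme for RD and another for HCD, and any separate handling of the diets cannot be told apart from diet.

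Sequence set some limits on how the family members could be measured. Saa1 to Saa4 lie within 42 kb on chromosome 7 (GENCODE M21 on GRCm38), Saa3 at chr7:46711998-46715700 (-), Saa4 at chr7:46727998-46732603 (-), Saa1 at chr7:46740497-46742980 (-) and Saa2 at chr7:46751790-46754313 (+). The coding sequences of Saa1 and Saa2, each of 369 bases, were 95.1% identical, whereas Saa1 shared 76.1% with Saa3 and 65.2% with Saa4. Of the 50-base windows of the Saa1 mRNA, 83 of 560 (14.8%) also occurred in another gene, and none of its 510 windows of 100 bases did. For Saa3 these were 93 of 2556 windows of 50 bases (3.64%) and 0 of 2506 windows of 100 bases. Orm1 at chr4:63344560-63348163 (+) and Orm2 at chr4:63362449-63365878 (+) were 89.9% identical in coding sequence and shared 47 of 676 windows of 100 bases (6.95%). Short reads of Saa1 and Saa2, or of Orm1 and Orm2, may therefore have been split or dropped when reads were counted. Sums of the paralogues are given as well, which do not depend on a split but cannot restore dropped reads.

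The sequences before the start sites are shown for the 2 nearly identical Saa genes and for the 2 members whose HCD and RD livers did not overlap. The following are the 250 bases before the RefSeq start of each gene on GRCm38.p6, 5′ to 3′ on the strand of the gene, with matches to the C/EBP motif TTGCNNAA on either strand in capitals. Saa1 spans chr7:46742981-46743230, Saa2 chr7:46751583-46751832, Saa3 chr7:46715677-46715926 and Orm2 chr4:63362199-63362448.
Saa1: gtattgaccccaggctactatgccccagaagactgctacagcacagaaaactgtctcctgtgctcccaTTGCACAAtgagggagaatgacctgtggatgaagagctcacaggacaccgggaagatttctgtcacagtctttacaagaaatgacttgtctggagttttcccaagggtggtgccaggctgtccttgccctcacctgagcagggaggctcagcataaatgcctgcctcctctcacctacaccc
Saa2: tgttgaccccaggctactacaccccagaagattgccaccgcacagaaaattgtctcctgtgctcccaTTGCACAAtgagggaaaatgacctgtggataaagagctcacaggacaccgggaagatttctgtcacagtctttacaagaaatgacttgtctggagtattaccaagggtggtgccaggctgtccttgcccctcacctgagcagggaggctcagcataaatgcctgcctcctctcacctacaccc
Saa3: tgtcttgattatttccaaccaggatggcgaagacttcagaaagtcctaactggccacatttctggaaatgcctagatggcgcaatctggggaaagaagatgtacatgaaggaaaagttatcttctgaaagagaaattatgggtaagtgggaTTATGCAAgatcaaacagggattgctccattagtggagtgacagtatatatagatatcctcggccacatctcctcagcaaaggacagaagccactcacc
Orm2: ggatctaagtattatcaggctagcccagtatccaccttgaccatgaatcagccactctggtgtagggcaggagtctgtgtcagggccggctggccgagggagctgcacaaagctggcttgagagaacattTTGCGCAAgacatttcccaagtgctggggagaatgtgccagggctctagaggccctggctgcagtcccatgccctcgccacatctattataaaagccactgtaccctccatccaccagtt

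Saa1 and Saa2 carried the same 8 letters at 182 and 183 bases before the start, and their windows, which reach 50 bases past the start, were 95.3% identical over 301 aligned positions. In Saa3 the match lay on the opposite strand, 99 bases before the start, and in Orm2 at 120 bases. In all, 7 of the 8 members with a RefSeq window held TTGCNNAA, compared with 10.8% of 32851 windows of the same length. The STAT motif TTCNNNGAA was found in Apcs alone (8.30% of all windows), and the NF-kB motif GGGANNTTC in none of the 8 (3.94%), both strands being searched and no match overlapping another. A match is a string of letters and not a measured binding site, and windows for Orm1 and Hp were not analysed here.

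Per kilobase, the haem and haemoglobin scavengers were the most abundant of the 10 with RD. Mean FPKM (fragments per kilobase of gene, scaled to library depth) in RD-fed mice was 6171 ± 961 for Hpx and 4317 ± 720 for Hp (SD, n = 3). Orm1 followed at 1499 ± 179 FPKM. The RD livers of these 3 neighbours in the order did not overlap. Then came Saa4 with 307.2 ± 111.9, Saa1 with 218.5 ± 124.3, Apcs with 140.5 ± 43.5, Saa2 with 89.8 ± 52.0 and Orm2 with 39.2 ± 24.8 FPKM, and within this stretch each gene overlapped the next. Lcn2 (6.96 ± 3.42) and Saa3 (3.40 ± 0.84) were lowest and overlapped each other. The deposited FPKM divide by all annotated exon bases, which for Saa1 are 2478 although its mRNA has 609. On the longest protein-coding transcript instead, Saa1 with RD came to 889.1 and Saa2 to 346.9 FPKM, above Saa4 at 307.2, so the order of Saa1, Saa2 and Saa4 rests on the length used.

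**Figure D1:**
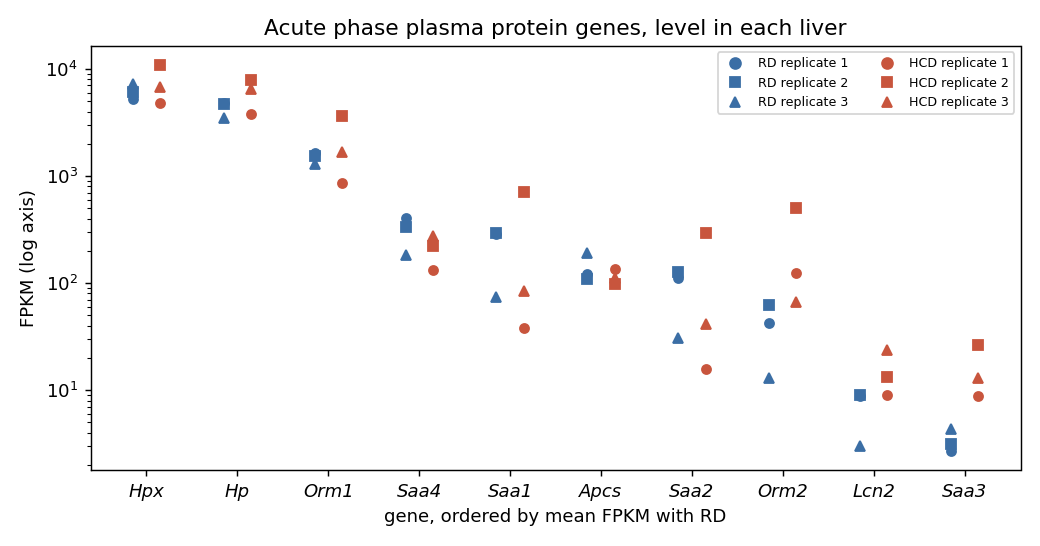
Level of each of the 10 genes in each liver as deposited FPKM (log axis), genes ordered by mean with RD, blue for RD and red for HCD, with 1 symbol per replicate. For 7 genes the highest point is HCD replicate 2 (red square), and Saa3 and Orm2 are the genes whose red and blue points do not overlap.

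Of the 10 members, 1 differed between the diets past an adjusted p of 0.05 (edgeR quasi-likelihood test, Benjamini-Hochberg over 13105 genes), and that was Saa3, higher with HCD. Among all genes tested 428 passed (3.27%), 255 of them higher with HCD (1.95%), so 1 of 10 is near that background and is no result about the group. DESeq2 called Saa3 alone as well, where 4.01% of all genes with an adjusted p were called higher. The log2 fold change was above 0 for 8 members and below 0 for Saa4 and Apcs, with a median of 0.42 over the 10 against 0.0074 over all genes tested. At an unadjusted p under 0.05, Saa3, Orm2 and Lcn2 were higher with HCD and none was lower, where 11.1% of all genes tested were higher and 9.81% lower. The livers of the diets did not overlap for 2 members, Saa3 and Orm2, compared with 27.6% of all genes tested. All tests here had 3 livers against 3, and an exact permutation test of a single gene cannot go below p = 0.1 in this design.

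**Figure D2:**
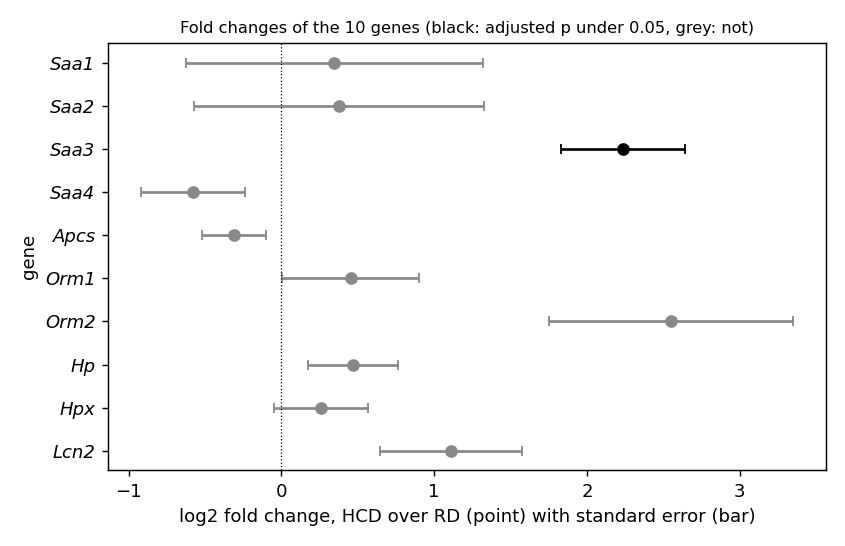
Log2 fold change of HCD over RD for each of the 10 genes (point) with its standard error (bar), from edgeR on 3 livers per diet. Saa3 at 2.24 is in black, having passed the adjusted p of 0.05, and the 9 genes in grey did not, among them Orm2 at 2.55 with a standard error of 0.80.

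Serum amyloid A proteins bind high-density lipoprotein, and Saa1 and Saa2 are its main acute phase forms. Saa1 was at 490.0, 504.1 and 124.1 CPM in RD replicates 1 to 3 and at 62.1, 1222 and 137.9 CPM in HCD replicates 1 to 3. The lowest and the highest of the 6 livers were thus both HCD-fed, 19.7-fold apart, while the RD livers spanned 4.06-fold. The lowest, HCD replicate 1, was also the only Xist-positive liver. Means were 372.7 ± 215.4 CPM with RD and 474.0 ± 648.9 CPM with HCD (SD, n = 3 each). The log2 fold change of 0.35 (SE 0.97) did not pass the edgeR test (adjusted p = 0.870) and the exact permutation test gave a two-sided p of 0.9. The spread of Saa1 within the diets, an SD of 1.77 on the log2 scale, was larger than that of 99.6% of the genes tested.

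Saa2 followed the same order of livers, with 191.8, 224.1 and 51.4 CPM with RD and 26.0, 511.3 and 70.1 CPM with HCD. Its diets overlapped throughout, with means of 155.8 ± 91.8 and 202.5 ± 268.4 CPM and a log2 fold change of 0.38 (SE 0.95, edgeR adjusted p = 0.854). Saa2 counts were 0.391, 0.445 and 0.414 times those of Saa1 with RD and 0.420, 0.418 and 0.509 times with HCD. While the level of Saa1 spanned 19.7-fold, this ratio ranged from 0.391 to 0.509. The mean log2 ratio differed between the diets by 0.10 (exact permutation test, two-sided p = 0.4, where the smallest possible is 0.1). The ratio was measured in a pair of genes that share short stretches of sequence. Summed, Saa1 and Saa2 gave a log2 fold change of 0.36 (SE 0.97, edgeR adjusted p = 0.865).

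The sign of both estimates changed with the livers included. Without HCD replicate 2 the log2 fold change was -1.91 for Saa1 and -1.71 for Saa2, neither past the threshold, and without RD replicate 3 it was -0.07 and -0.04. With all 6 livers it was also below 0 in the limma fits and with the replicate block. The sign of the difference of Saa1 and Saa2 was therefore not determined by these 6 livers.

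Saa3, which hepatocytes, macrophages and adipocytes are known to make, was a low-level transcript and the only member to pass the edgeR test. It was at 4.85, 5.71 and 7.54 CPM with RD, from 101, 82 and 174 counts. With HCD it was at 15.3, 48.0 and 22.4 CPM, from 303, 697 and 277 counts. The lowest HCD liver was above the highest RD liver. Means were 6.03 ± 1.38 and 28.6 ± 17.2 CPM (SD, n = 3 each), and the log2 fold change was 2.24 (SE 0.41, edgeR adjusted p = 0.0295). The exact permutation test gave a two-sided p of 0.1, the smallest it can give here. Without HCD replicate 2 it was 1.63 and without HCD replicate 1, the Xist-positive liver, 2.54, and it stayed past the threshold in both. Leaving out any one of the 3 RD livers or HCD replicate 3 kept the fold change between 2.10 and 2.43 but raised the adjusted p to 0.0667 to 0.135. The call was also lost with the replicate block (2.09, edgeR adjusted p = 0.0536), where Orm2 passed instead (2.28, adjusted p = 0.0397).

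Markers of the other cell types that make Saa3 were read beside it. The 8 Kupffer cell markers summed to 131.8, 162.9 and 225.3 CPM with RD and 411.9, 365.1 and 186.4 CPM with HCD. All 8 had a positive log2 fold change and none passed the edgeR test, while 4 of 8 were higher at an unadjusted p under 0.05 (11.1% of all genes tested). DESeq2 called 3, Clec4f, Cd5l and C1qb, where it called 4.01% of all genes higher. In HCD replicate 3 the Kupffer sum was within the RD range, and Saa3, at 22.4 CPM, was above every RD liver. Its single markers were mixed, with C1qb (33.2 CPM) and Marco (6.88 CPM) above every RD liver and Adgre1 (2.75 CPM) below. The remaining markers of the list were within the RD range there. The adipocyte markers summed to 1.30 to 2.16 CPM over the 6 livers, with Adipoq at 3 counts or fewer in each. In whole liver, more cells of a type and more RNA per cell cannot be told apart, and the part of Kupffer cells in the Saa3 difference was not tested.

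Saa4, the constitutive form, was at 581.2, 484.2 and 258.6 CPM with RD and 183.5, 322.0 and 380.0 CPM with HCD. The diets overlapped, with a log2 fold change of -0.58 (SE 0.34, edgeR adjusted p = 0.369). Within RD, replicate 3 was the lowest liver for Saa1, Saa2 and Saa4 alike. Within HCD the order differed, since replicate 2 was above the others for Saa1, Saa2 and Saa3 and between them for Saa4. Among the 4 neighbouring genes, the estimates thus ran from -0.58 for Saa4 to 2.24 for Saa3.

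Apcs encodes serum amyloid P, a pentraxin that binds amyloid fibrils and bacterial surfaces. Apcs (chr1:172893961-172895041, minus strand) was at 80.5, 74.6 and 123.5 CPM with RD and 86.3, 65.6 and 72.9 CPM with HCD. It was the least variable of the 10, with a within-diet SD of 0.31 on the log2 scale. The log2 fold change was -0.31 (SE 0.21, edgeR adjusted p = 0.433). HCD replicate 2, the highest liver for 7 members, was the lowest for Apcs.

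The orosomucoids, or alpha-1-acid glycoproteins, are lipocalins that carry drugs and small lipophilic ligands in plasma. Orm1, the major form in these livers, was at 880.9, 828.8 and 674.8 CPM with RD and 443.9, 1955 and 866.2 CPM with HCD. The RD livers lay within the HCD range, and the log2 fold change of 0.45 (SE 0.45) did not pass the edgeR test (adjusted p = 0.603). Without HCD replicate 2 it was -0.29.

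Orm2 was at 22.4, 33.7 and 6.76 CPM with RD and 63.1, 268.4 and 34.1 CPM with HCD. The lowest HCD liver exceeded the highest RD liver by a margin of 34.1 against 33.7 CPM, well within the spread of either diet. Its log2 fold change of 2.55 was the largest among the 10, with an SE of 0.80 and an edgeR adjusted p of 0.125 (unadjusted p = 0.0119). The estimate fell to 1.22 without HCD replicate 2 and remained above 0 without each other liver in turn. Orm2 passed the threshold in 2 of 16 alternative analyses, with the replicate block and without the low-count filter.

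Orm2 counts were 0.0254, 0.0407 and 0.0100 times those of Orm1 with RD, and 0.142, 0.137 and 0.0394 times with HCD. Orm2 thus made up a larger share in 2 HCD livers, while HCD replicate 3 lay within the RD range. The mean log2 ratio was -5.52 ± 1.03 with RD and -3.45 ± 1.05 with HCD (SD, n = 3 each), a difference of 2.07 (exact permutation test, two-sided p = 0.2, where the smallest possible is 0.1).

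The third orosomucoid gene, Orm3, is no member of the list but lies in the same 21 kb cluster and rose with HCD. It was at 1.73, 0.696 and 0.520 CPM with RD and 6.46, 7.16 and 9.63 CPM with HCD, with no overlap (log2 fold change 2.96, SE 0.47, edgeR adjusted p = 0.0216). The call was lost in 4 of 16 alternative analyses, with the replicate block or with RD replicate 2, RD replicate 3 or HCD replicate 3 left out (adjusted p = 0.0524 to 0.105). Its level was far below those of its neighbours, and 26 of 724 windows of 50 bases of its mRNA (3.59%) also occurred in another gene. Unlike Orm1 and Orm2, it was not highest in HCD replicate 2. Summed over the 3 genes, which Orm1 dominates, the log2 fold change was 0.58 (SE 0.46, edgeR adjusted p = 0.507).

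Haptoglobin binds free haemoglobin and haemopexin binds free haem, and together they held most of the members' counts. Hp (chr8:109575128-109579172, minus strand) was at 5269, 5233 and 3740 CPM with RD and 4069, 8676 and 6958 CPM with HCD. Its log2 fold change of 0.47 (SE 0.29, edgeR adjusted p = 0.400) did not pass, with the HCD replicate 1 value inside the RD range. Hpx (chr7:105591613-105600137, minus strand) was at 5402, 6353 and 7176 CPM with RD and 4745, 11194 and 6741 CPM with HCD, a log2 fold change of 0.26 (SE 0.31, edgeR adjusted p = 0.674). HCD replicate 2 was highest for both genes, and without it the estimates were 0.21 for Hp and -0.14 for Hpx.

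Haemoglobin transcripts, whose products Hp clears, rose with HCD in the same livers. Hbb-bs, the beta chain, was at 24.5, 14.8 and 38.5 CPM with RD and 80.4, 166.3 and 134.1 CPM with HCD (log2 fold change 2.28, SE 0.37, edgeR adjusted p = 0.0223). Hba-a1, the alpha chain, gave 2.41 (SE 0.39, edgeR adjusted p = 0.0217). Both calls were lost in 4 of 16 alternative analyses, namely the replicate block (adjusted p = 0.054) and the fits lacking RD replicate 1 (0.112), RD replicate 2 (0.0745 for Hbb-bs, 0.0754 for Hba-a1) or HCD replicate 3 (0.0744 and 0.0743). Red cell precursors and blood left in the tissue carry these RNAs, and the part of blood content in the members' values was not tested.

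Lipocalin 2 sequesters bacterial siderophores and is made by hepatocytes in an acute phase response and by neutrophils. Lcn2 (chr2:32384633-32388252, minus strand) was at 15.9, 16.5 and 5.29 CPM with RD and 15.6, 24.0 and 41.5 CPM with HCD, from 122 to 513 counts. HCD replicates 2 and 3 were above all RD livers, and HCD replicate 1 was level with RD replicates 1 and 2. The log2 fold change of 1.11 (SE 0.46) had an unadjusted p of 0.0418 and an edgeR adjusted p of 0.217, and it passed the threshold in none of the 16 alternative analyses. The neutrophil markers summed to 2.44 to 3.77 CPM with RD and 2.96 to 5.34 CPM with HCD over the 9 listed genes, most of it from S100a8 and S100a9. The highest sum was in HCD replicate 3, the liver with the most Lcn2. In that liver the granule genes Ngp, Camp, Ltf and Mpo had 0 counts, whereas Elane had 11 and Cxcr2 10. The part of neutrophils in the Lcn2 values was not tested.

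Read across the 10 genes, a few livers held most of the extreme values. HCD replicate 2 was the highest liver for Saa1, Saa2, Saa3, Orm1, Orm2, Hp and Hpx, with a median log2 deviation of 0.98 from the 6-liver means. HCD replicate 1, the Xist-positive liver, was the lowest for Saa1, Saa2, Saa4, Orm1 and Hpx, with a median deviation of -0.45. RD replicate 3 was the lowest for Orm2, Hp and Lcn2, with -0.61. The median deviations of the remaining 3 livers were between -0.041 and 0.023. The members' joint share of all counts was 1.34%, 1.44% and 1.21% with RD and 1.04%, 2.38% and 1.36% with HCD. The HCD livers thus held both the lowest and the highest share.

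**Figure D3:**
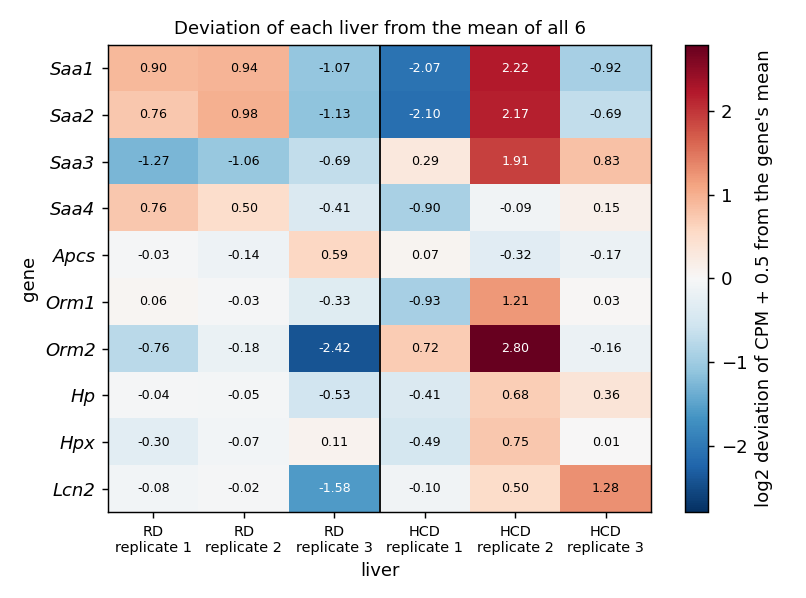
Log2 deviation of CPM + 0.5 in each liver (columns) from the gene's mean over all 6 livers (10 genes in rows), red above and blue below. HCD replicate 2 is red for Saa1 (2.22), Saa2 (2.17), Saa3 (1.91) and Orm2 (2.80), and HCD replicate 1 is blue for Saa1 (-2.07) and Saa2 (-2.10).

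Leaving out each liver in turn showed which members' estimates depend on a single animal. The sign turned for Saa1 and Saa2 without HCD replicate 2 or RD replicate 3, and for Orm1 and Hpx without HCD replicate 2. Saa3, Orm2, Hp and Lcn2 stayed above 0 and Saa4 and Apcs below 0 in all 6 cases. The number of members past the threshold was 1, Saa3, without HCD replicate 1 or 2, and 0 without any of the other 4 livers.

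**Figure D4:**
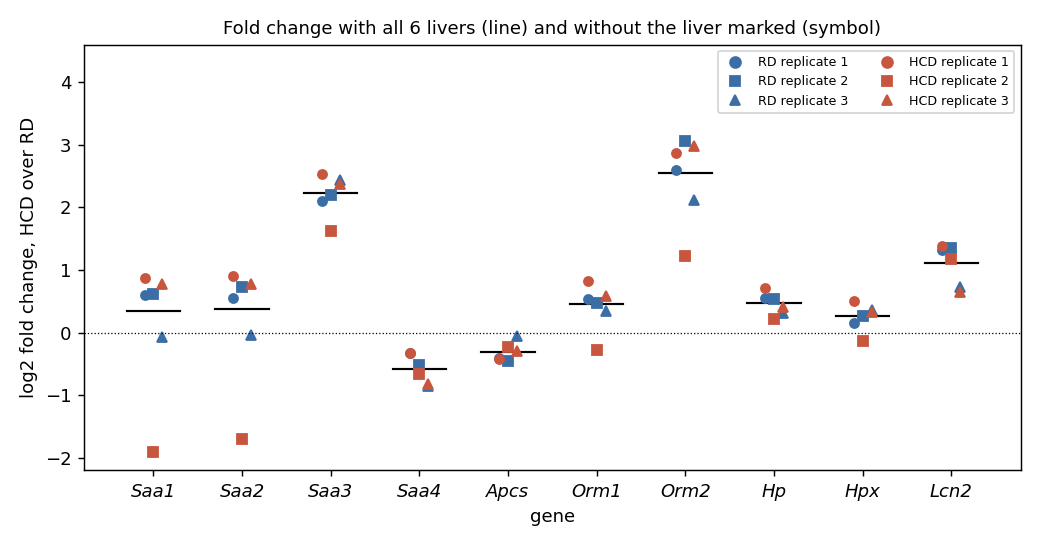
Log2 fold change of HCD over RD with all 6 livers (line) and with the marked liver left out (symbols, blue for RD and red for HCD, 1 shape per replicate), by gene. Without HCD replicate 2 (red square) the estimate was -1.91 for Saa1 and -1.71 for Saa2, while Saa3 stayed between 1.63 and 2.54.

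The other genes of the acute phase pathway were read from lists set by role. Of 31 further genes listed as positive acute phase genes, 29 were tested. Among these, 2 rose and 1 fell (edgeR adjusted p under 0.05), with a median log2 fold change of -0.034. Among all genes tested 1.95% were called higher and 1.32% lower. Those that rose were Orm3, given above, and Cd14, a co-receptor for endotoxin, at 1.30, 1.11 and 0.910 CPM with RD and 6.61, 4.68 and 4.94 CPM with HCD (log2 fold change 2.29, SE 0.35, adjusted p = 0.0180). The Cd14 call was lost with the replicate block or with any one RD liver left out (adjusted p = 0.0525 to 0.0871). Steap4, a metalloreductase, fell from 338.7, 289.2 and 212.1 CPM to 71.5, 71.0 and 95.5 CPM (-1.82, SE 0.21, adjusted p = 0.00699). The most abundant of the list, Serpina1e and Serpina3k, were protease inhibitors whose estimates of -2.05 and -0.88 did not pass (edgeR adjusted p = 0.391 and 0.414). In HCD replicate 1, the Xist-positive liver, Serpina1e was at 24.7 CPM, against 4512 and 7741 CPM in the other HCD livers. Of the fibrinogen genes, Fga gave -0.77 (adjusted p = 0.0716), Fgb -0.69 (adjusted p = 0.0751) and Fgg -0.43 (adjusted p = 0.248), and DESeq2 called Fga and Fgb but not Fgg. DESeq2 called 3 genes of this list higher and 4 lower, where it called 4.01% of all genes higher and 3.19% lower.

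None of the 12 negative acute phase genes passed the edgeR test, their median log2 fold change was 0.13, and 4 were higher and none lower at an unadjusted p under 0.05 (11.1% and 9.81% of all genes tested). Albumin (Alb) had an estimate of 0.26 (adjusted p = 0.608) and Apoa1, the main protein of high-density lipoprotein, -0.25 (adjusted p = 0.619). Those at an unadjusted p under 0.05 were Trf (0.86), Apoa2 (0.77), Ttr (0.59) and Serpina6 (0.88), of which DESeq2 called the first 3 (4.01% of all genes higher).

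Cytokine transcripts were scarce in these livers. Of the 7 listed ligands, 3 had enough counts to test, and none passed in edgeR or DESeq2, nor at an unadjusted p under 0.05. Il6 had 9 counts or fewer in each liver and Tnf 8 or fewer, so differences in these ligands were not detectable at this depth. Il1b had 91 counts in HCD replicate 1 and 0 in HCD replicate 3, and Il1a 64 and 22, with estimates of 0.54 (edgeR adjusted p = 0.807) and 0.77 (edgeR adjusted p = 0.317).

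The receptors and transducers of these cytokines were measured at higher levels, and 3 of 16 fell with HCD while none rose, where 1.32% of all genes tested fell and 1.95% rose. Their median log2 fold change was -0.25. Il6st, which encodes the shared gp130 chain, was at 171.1, 200.7 and 182.9 CPM with RD and 108.3, 131.7 and 99.0 CPM with HCD (-0.71, SE 0.15, adjusted p = 0.0454). Lifr, the leukaemia inhibitory factor receptor, fell from 425.3, 307.5 and 395.9 CPM to 141.2, 232.2 and 122.4 CPM (-1.19, SE 0.25, adjusted p = 0.0462). The kinase gene Tyk2 fell by 0.77 on the log2 scale (SE 0.16, adjusted p = 0.0387). These 3 calls were near the threshold and were each lost in 8 to 10 of 16 alternative analyses. At an unadjusted p under 0.05 in edgeR, 7 of the list were lower and none higher (9.81% and 11.1% of all genes tested). DESeq2 called 4 of them lower and none higher, where it called 3.19% of all genes lower and 4.01% higher. Il1rap, the accessory chain of the interleukin-1 receptor and the second most abundant of the list, gave 0.07 (adjusted p = 0.812).

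Among 12 transcription factors of the response, Stat3 fell and no other passed the edgeR test (median -0.15), where 1.32% of all genes tested fell. DESeq2 also called Cebpb higher and Bcl3 lower, where it called 4.01% of all genes higher and 3.19% lower. Stat3 was at 160.6, 194.4 and 203.0 CPM with RD and 89.9, 79.9 and 83.9 CPM with HCD, a log2 fold change of -1.14 (SE 0.14, edgeR adjusted p = 0.00948), and the adjusted p was 0.0563 without RD replicate 2. The HCD livers agreed closely with each other here, including replicate 2, in which Saa1, Saa2 and Orm2 were highest. RNA does not show the activity of the STAT3 protein, and its part in the members' values was not tested. Bcl3, a nuclear cofactor of NF-kB, gave -1.31 (edgeR adjusted p = 0.0834). Cebpb gave 1.02 (adjusted p = 0.110) and Cebpd 0.87 (adjusted p = 0.140), whereas the abundant hepatocyte factors Hnf4a (-0.36, adjusted p = 0.279) and Cebpa (-0.19, adjusted p = 0.576) did not pass either.

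Of 9 genes listed as feedback inhibitors, Nfkbia rose and Nfkbiz fell, where 1.95% of all genes tested rose and 1.32% fell. Nfkbia encodes the inhibitor that holds NF-kB in the cytoplasm and is itself a known NF-kB target. It was at 19.1, 25.0 and 21.3 CPM with RD and 49.4, 45.8 and 64.2 CPM with HCD (1.29, SE 0.18, adjusted p = 0.0130), and the adjusted p was 0.0781 without RD replicate 1. Nfkbiz, a nuclear cofactor of NF-kB, was at 10.9, 13.8 and 10.1 CPM with RD and 5.65, 5.37 and 3.07 CPM with HCD (-1.29, SE 0.28, adjusted p = 0.0462). The Nfkbiz call was near the threshold and was lost in 12 of 16 alternative analyses, including each in which 1 liver was left out (adjusted p = 0.0548 to 0.201). Socs3, the inhibitor induced by STAT3, was at 14.2, 15.4 and 22.4 CPM with RD and 11.4, 2.96 and 3.64 CPM with HCD, without overlap, and its estimate of -1.51 (SE 0.47) did not pass (edgeR adjusted p = 0.125). Socs3 was called lower by DESeq2, without the low-count filter and without HCD replicate 1. Ptpn11, a phosphatase and the most abundant gene of the list, gave -0.40 (adjusted p = 0.148).

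**Figure D5:**
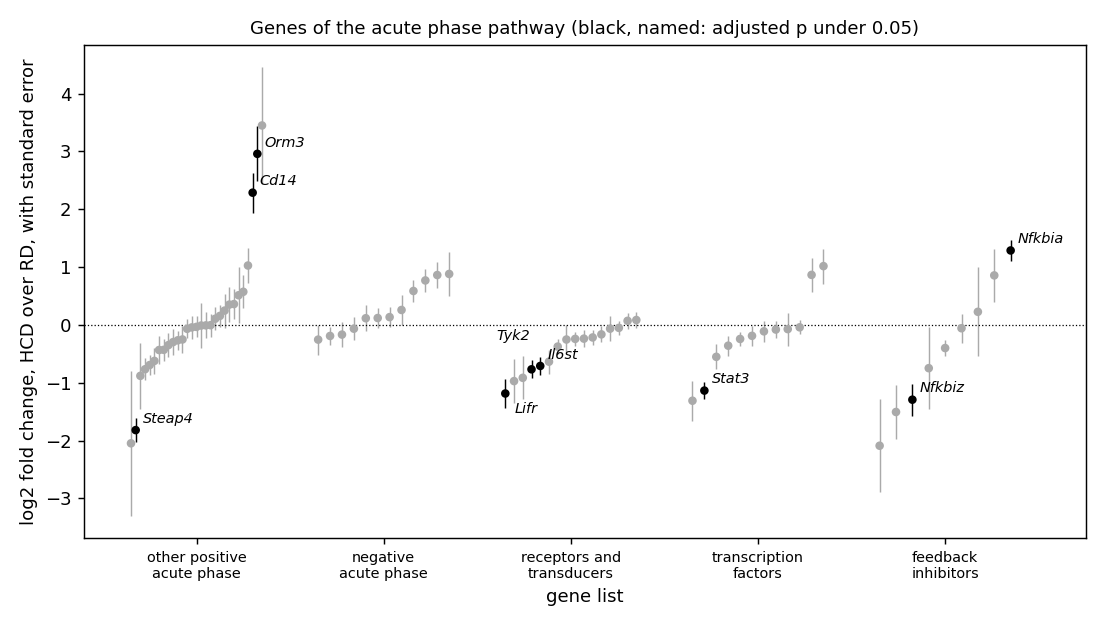
Log2 fold change of HCD over RD (points) with standard error (lines) for the tested genes of 5 lists of the acute phase pathway, sorted within each list. Black named genes passed the edgeR adjusted p of 0.05, and among the receptors and transducers the 3 named genes are all below 0.

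Receptors and partners of the plasma proteins were also listed. Of 12 such genes, 10 were tested, and the 2 that rose were the haemoglobin chains above, where 1.95% of all genes tested rose. Scarb1, the receptor for high-density lipoprotein that also binds serum amyloid A, was at 254.9, 218.3 and 217.5 CPM with RD and 365.8, 372.9 and 332.1 CPM with HCD, and its estimate of 0.63 (SE 0.14) missed the threshold (edgeR adjusted p = 0.0514). DESeq2 called it, as did 5 other alternative analyses of the 16. Lrp1, which takes up haem bound to haemopexin, gave -0.39 (adjusted p = 0.170). Cd163, the receptor for haptoglobin bound to haemoglobin, was at 4.13 to 8.88 CPM in the 6 livers, with an estimate of 0.02 (adjusted p = 0.979).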

How the data were processed

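Liver RNA of 3 RD-fed and 3 HCD-fed mice was sequenced in 6 libraries by a service provider, and diets and replicate numbers were taken from the sample labels. The authors deposited read counts per gene, not normalized, and FPKM, with p-values and log2 fold changes of their own that were not used. The submitters' notes name STAR, HTSeq, DESeq2, edgeR and the build GRCm39 with no role. Dividing counts by FPKM gave gene lengths that matched GENCODE M21 (GRCm38) for 94.6% of genes or more, so positions were taken from M21. Library kit, strand and read length are not given in the sources used here.

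The main test was edgeR 4.0.16 under R 4.3.3 on the deposited counts. The function filterByExpr by diet kept 13105 of 20673 genes, TMM gave factors of 0.887 to 1.07, and a quasi-likelihood F test of diet without covariates was adjusted by Benjamini-Hochberg over all genes tested, with calls at 0.05. Exact permutation tests were two-sided over all assignments of 3 of the 6 livers. DESeq2 1.42.0 and limma 3.58.1 (on log2 of FPKM plus 1 or 0.1) were among 16 alternatives. The fit was tested on simulated data first. Within-diet deviations of livers with equal replicate numbers correlated at -0.084, 0.119 and -0.030, so the numbers were not taken as pairs. Promoters were the RefSeq windows from 250 bases before to 50 after the start, present for 8 of 10 members.

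Depth was 13771630 to 23129576 counts per liver, and intervals at this depth are set by the spread between livers, since replicates differed by far more than counting error (chi-square per degree of freedom 30.8 to 156.9). The members, pathway lists, marker lists and motifs were chosen with earlier results of these data known. All 10 members are given, and from each pathway list the called genes and the 2 most abundant, while others (Fga, Fgb, Fgg, Socs3, Bcl3, Cebpb, Cebpd, Cd163, Il6, Tnf and the negative acute phase genes at unadjusted p under 0.05) were named after their values were seen.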

Additional observations from a re-analysis of the deposited data

How the results depend on the processing

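Of the 16 alternatives, 11 kept the Saa3 call, with log2 fold changes of 1.63 to 2.54 over all of them. Saa4 and Apcs stayed below 0, and Saa3, Orm2, Hp and Lcn2 above 0, in all 16. Signs turned for Saa1 (-0.485 and -0.493 with limma on log2 FPKM + 1 and + 0.1, -0.400 with the replicate block, -1.91 to 0.87 over the left-out livers), Saa2 (-0.372, -0.389, -0.278, -1.71 to 0.90), their sum (-0.456, -0.462, -0.362, -1.84 to 0.88), Orm1 (-0.29 to 0.83 over the left-out livers), Hpx (-0.14 to 0.51) and the orosomucoid sum (-0.21 to 0.94). None of these was past the threshold, and the cause was not tested.

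The replicate block left 136 calls over all genes, 3 pathway genes (Stat3, Steap4, Nfkbia) and 1 member, which was Orm2 (2.28, adjusted p = 0.0397) and no longer Saa3 (2.09, adjusted p = 0.0536). Calls over all genes numbered 995 with DESeq2, 649 without the low-count filter, 251 with the length trend removed and 36 to 335 without 1 liver (36 without RD replicate 1). Members called numbered 2 without the filter (Saa3 and Orm2, the latter at adjusted p = 0.0344) and 0 to 1 without 1 liver. Pathway genes called numbered 11, with 23 by DESeq2, 20 without the filter and 2 to 12 without 1 liver (2 without RD replicate 2). Steap4 was called in all 16 alternatives, Stat3 and Nfkbia in 15 each, Orm3, Cd14, Hbb-bs and Hba-a1 in 12 each, and Nfkbiz in 4. Other scalings moved the median log2 fold change of all genes to between -0.0585 and 0.0412. With 3 livers per diet, standard errors of 0.97 for Saa1 and 0.95 for Saa2 on the log2 scale limit what could be detected.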

Other observations

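Genes outside the list whose log2 CPM followed a member most closely over the 6 livers were named among the 9105 genes that averaged 5 CPM or more. Each value is among the highest of 9105 correlations over 6 points that share library depth and scaling, and is a description without a test. For Saa1 they were Slc6a9, a glycine transporter (r = 0.995), Pgp (0.992) and Mfsd6 (0.980). For Hp they were Sgsm3 (0.987), Arpc5l (0.984) and Nucb1 (0.983). For Lcn2 they were Chst13 (0.994), 1700021F05Rik (0.977) and Lmna, which encodes the nuclear lamins A and C (0.973).

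Mt1, a metallothionein that is also induced in acute phase responses, was at 6.14, 4.11 and 10.8 CPM with RD and 199.3, 10.7 and 21.8 CPM with HCD. Its highest liver was HCD replicate 1, in which Saa1, Saa2 and Orm1 were at their lowest, and its estimate of 3.45 did not pass the edgeR test (adjusted p = 0.105). Sums of markers of other liver cell types were 6.28 to 10.9 CPM with RD and 9.22 to 15.9 CPM with HCD for other leukocytes, 104.8 to 166.8 and 113.9 to 194.4 CPM for endothelial cells, 206.5 to 229.0 and 225.7 to 336.6 CPM for stellate cells, and 37.3 to 91.7 and 64.4 to 97.9 CPM for cholangiocytes, and none of their tested genes passed the edgeR test, while at an unadjusted p under 0.05 there was 1, a stellate cell marker that was higher with HCD, and DESeq2 called 0. Mt1 and the sums were chosen after their values were seen or as checks, and nothing is drawn from them about the members.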
